A study of Homo sapiens with 58 samples.

Results

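Binding of the RNA-binding protein HuR was described on the transcripts of 10 heat shock and chaperone genes: HSPA1A, HSPA1B, DNAJB1, HSPH1, HSPA8, HSP90AA1, HSP90AB1, HSPA5, BAG3 and HSPD1. The genes were chosen by name, and every peak that the deposited coverage table assigned to one of these names was taken. This gave 94 peaks of 387214 in the table, and 10 genes of the 13836 that are named there. All peaks are 20 nt long. Over the 58 libraries the peaks of these genes held 5353 tags (sequenced CLIP fragments), which is 0.0679% of the 7887093 tags in the table.

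Molecular chaperones bind unfolded or partly folded proteins and help them to fold, to assemble or to be degraded. HSP70 proteins (HSPA1A, HSPA1B, HSPA8 and, in the endoplasmic reticulum, HSPA5) bind and release clients in a cycle driven by ATP, which J-domain proteins such as DNAJB1 start and nucleotide exchange factors such as HSPH1 and BAG3 reset. HSP90 proteins (HSP90AA1 and HSP90AB1) act later on signalling proteins, and HSPD1 is the chaperonin of the mitochondrial matrix. Arsenite damages proteins, activates the heat shock factor HSF1 and blocks translation initiation, with the assembly of stress granules in the cytoplasm. HuR (ELAVL1) is a mainly nuclear protein that binds U-rich and AU-rich sequences in introns and 3′UTRs, and moves partly to the cytoplasm under stress.

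The libraries were CLIP-seq libraries, in which RNA crosslinked to HuR by UV light is recovered with the HuR antibody 3A2 and sequenced. All came from Huh-7.5, a hepatocellular carcinoma cell line, either mock-treated or exposed to 0.5 mM sodium arsenite for 45 min. Nuclear and cytoplasmic fractions came from cells of genotype WT without an APEX reaction, with 3 libraries for each fraction and treatment. The other libraries came from 3 lines that carry the peroxidase APEX, of genotypes APEX-NLS (fused to a nuclear localisation signal), APEX-NES (to a nuclear export signal) and APEX-G3BP1 (to a stress granule protein). In these lines proteins near the enzyme were labelled from biotin phenol with hydrogen peroxide, in mock and arsenite cells alike. Enriched libraries had a streptavidin capture in addition to the HuR immunoprecipitation, and input libraries had none. For each treatment there were 2 inputs and 4 enriched libraries of APEX-NLS and as many of APEX-NES. APEX-G3BP1 was represented by 4 inputs and 6 enriched libraries without arsenite, and by 5 inputs and 7 enriched libraries with it. The labels do not say whether an APEX line is 1 clone, which promoter drives APEX, or whether replicates were separate cultures, so p-values measure the spread between these samples, which may be technical. The labels name more than 1 UV dose and RNase I dilution without saying which library had which, so a part of these in any comparison was not tested.

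The 12 fraction libraries held 686263 to 1759090 tags each, of which 136 to 466 (median 245.5) lay in the chaperone peaks. The enriched libraries were shallow: the 29 libraries held 0 to 68 chaperone tags (median 5), and 18 of them held fewer than 10. The 17 input libraries held 0 to 385 (median 44). Values are tags per 1000000 of the library's total (CPM), and 3 tags corresponded to 1.71 to 4.37 CPM in the fraction libraries and up to 643.5 CPM in the enriched ones. Of 8 hepatocyte genes, 6 had peaks (APOA1 and TTR had none), and their summed level was 1774 to 2520 CPM in the cytoplasmic mock libraries and 945 to 1062 CPM in the cytoplasmic arsenite libraries. In the nucleus it was 1112 to 1195 CPM in mock and 654 to 707 CPM in arsenite libraries. The nuclear RNAs MALAT1 and NEAT1 summed to 2265 to 2829 CPM in the cytoplasmic mock libraries, beside 2788 to 3124 CPM in the nuclear ones, so the cytoplasmic fractions also held tags of nuclear RNA. Under arsenite these RNAs summed to 2603 to 3584 CPM in the cytoplasm and 3028 to 3879 CPM in the nucleus. Of 4 fibroblast genes 1 had peaks (COL3A1, 7 tags in all), and of 4 leukocyte genes 2 had peaks (LYZ and PTPRC, 148 tags). Their summed level was 17.3 to 21.1 CPM in cytoplasmic mock and 5.56 to 7.39 CPM in cytoplasmic arsenite libraries, and 4.83 to 8.18 CPM in nuclear mock and 2.40 to 4.004 CPM in nuclear arsenite libraries, without overlap in either fraction. The part of these differences in the chaperone results was not tested.

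Promoters of 4 of the 10 genes held a long match to the heat shock element, the DNA motif of HSF1, and these stretches are shown because they mark which of the genes carry it close to a start site. The motif searched was 3 units of 3 bases in turn, either GAA, TTC and GAA or TTC, GAA and TTC, with any 2 bases between neighbouring units. Each form is the reverse complement of the other, so both strands were covered, and overlapping matches were counted. The window was 250 bases before to 50 after each start in RefSeq (GRCh38.p14). Of 35097 promoters 172 (0.490%) held a match, and of the 16 promoters listed for the 10 genes 4 did. Capitals mark the match nearest the 5′ end of the window, and each sequence is given 5′ to 3′ on the strand of the gene. HSPD1, HSP90AB1 and HSPA8 held 2 matches each. In HSPD1 the other match shares 8 bases with the capitalised one and ends at -228, and in HSP90AB1 and HSPA8 it lies outside the stretch shown and ends at -100 and -43.
HSPD1: gcattTTCTGGAAAGTTCtggaaccg
HSP90AB1: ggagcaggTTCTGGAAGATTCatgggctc
HSPA8: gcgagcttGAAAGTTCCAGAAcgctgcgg
HSP90AA1: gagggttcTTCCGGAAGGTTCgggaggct
The HSPD1 stretch lies at chr2:197500065-197500090 (minus strand), the HSP90AB1 stretch at chr6:44247770-44247798 (plus strand), the HSPA8 stretch at chr11:123062346-123062374 (minus strand) and the HSP90AA1 stretch at chr14:102087112-102087140 (minus strand). The last base of the capitalised match was at position -233, -153, -218 and -76 from the start, in the same order, where -1 is the base just before the start. A match is a description of these letters, and the libraries measured RNA bound by HuR, not binding of HSF1. No match in the windows of the other genes says only that these letters are not there.

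HuR tags on these transcripts lay mainly in the 3′UTRs. The 24 peaks of the 3′UTR class held 3452 tags (64.5% of the chaperone tags). The same class held 23.8% of the tags of all peaks, and 29.6% of the tags of peaks with a gene name. Intron peaks were the most numerous (58 peaks) but held 1083 tags (20.2%, against 41.8% over all peaks and 51.8% over peaks with a gene name). The 4 peaks of the 5′UTR class held 397 tags (7.42%), the single snoRNA peak 272 (5.08%), the 5 CDS peaks 112 (2.09%) and the 2 peaks in transposable elements 37 (0.691%). Of the 397 tags, 333 lay in an HSPA8 peak inside the snoRNA SNORD14C. Tags were concentrated: 3 peaks held 2610 tags (48.8%), and 62 peaks held fewer than 20 tags each.

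The position of the tags differed from gene to gene. HSP90AA1, the stress-inducible cytosolic HSP90, had 1841 of its 2011 tags (91.5%) in 3 peaks of the 3′UTR, and the strongest, at chr14:102081608-102081628, held 1417. The next, at chr14:102081472-102081492, held 384. HSP90AB1, the constitutive HSP90, had 449 of 584 tags in the 3′UTR (76.9%), of which 433 lay in the peak at chr6:44253829-44253849. The inducible HSP70 gene HSPA1B had all its 870 tags in 2 peaks of the 3′UTR, 760 of them at chr6:31830166-31830186. Its near-identical neighbour HSPA1A had 55 tags in 3 peaks of the 3′UTR. How the authors assigned reads that fit both copies is not given in the sources used here, so the division of tags between HSPA1A and HSPA1B is uncertain.

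The constitutive HSP70 gene HSPA8 had no peak in its 3′UTR. Its tags lay instead at small nucleolar RNAs (snoRNAs) encoded in its introns: 333 tags at chr11:123059361-123059381, inside SNORD14C, and 272 tags at chr11:123058087-123058107, inside SNORD14E. The table gives the peak at SNORD14C the class 5′UTR, although it lies 3091 nt from the start of the gene in RefSeq. It is called the SNORD14C peak here. HSPA5, the HSP70 of the endoplasmic reticulum, had 104 of 130 tags in the 3′UTR. HSPH1 (395 of 464 tags) and HSPD1 (352 of 431) had most tags in introns, over 19 and 21 peaks, and BAG3 had all its 45 tags in 5 intron peaks. DNAJB1 had 86 tags, 45 of them in a 5′UTR peak. HSPA8 and HSPD1 have many processed pseudogenes, so tags on their exons may be shared with those copies.

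**Figure D1:**
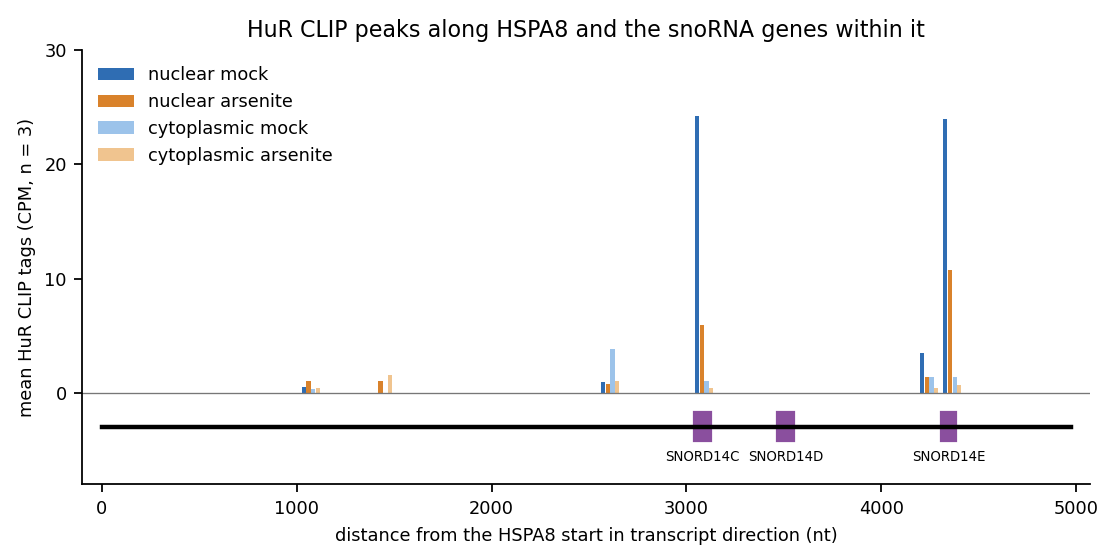
Mean HuR signal (CPM, vertical axis) of the HSPA8 peaks against distance from the gene start (nt, horizontal axis) in the 4 fraction groups, with bars of the groups drawn side by side at each peak and boxes for the snoRNAs SNORD14C, SNORD14D and SNORD14E. The 2 tall groups of bars stand at SNORD14C and SNORD14E and belong to the nuclear libraries.

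In unstressed cells the 3′UTRs of HSP90AA1, HSPA1B, HSP90AB1 and HSPA5 carried more HuR tags in the cytoplasmic fraction, and the HSPA8 snoRNA peaks and HSPD1 introns more in the nuclear fraction. Peaks of each gene and class were summed into gene regions, 26 in all. Of 24 chaperone gene regions tested between the nuclear and the cytoplasmic mock libraries, 3 were higher in the nucleus and 5 in the cytoplasm (limma, Benjamini-Hochberg adjusted p under 0.05 over all gene regions of the table). In the same comparison 29% of all 21245 gene regions were called, so 8 of 24 is close to the background. In CLIP data more RNA in a fraction and more HuR bound per RNA cannot be told apart, here and in every comparison that follows.

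The HSP90AA1 3′UTR had 36.4, 32.7 and 29.9 CPM in the nuclear mock libraries and 148.9, 241.4 and 261.5 CPM in the cytoplasmic mock libraries. The ranges were apart, and the nuclear level was 6.58-fold lower (log2 difference -2.60, SE 0.21, limma adjusted p = 7.42e-07). The HSPA1B 3′UTR had 7.29, 14.5 and 7.72 CPM in the nucleus and 51.1, 89.6 and 114.9 CPM in the cytoplasm. Every cytoplasmic library exceeded every nuclear one, 8.65-fold in the means (log2 difference -2.83, SE 0.30, limma adjusted p = 1.02e-05). The HSP90AB1 3′UTR had 11.7, 10.0 and 11.6 CPM in the nucleus and 38.3, 46.8 and 48.5 CPM in the cytoplasm. This was a 4.02-fold difference without overlap (log2 difference -1.80, SE 0.22, limma adjusted p = 3.23e-05). The HSPA5 3′UTR was also lower in the nucleus (log2 difference -1.19, SE 0.33, limma adjusted p = 0.0147). The fifth region counted as lower, the HSP90AA1 CDS, had 0 tags in the 3 nuclear mock libraries and entered the test only through the cytoplasmic ones, so its call is given no weight. Over all genes, 50.1% of 6090 3′UTR regions were called and the median log2 difference was -0.98. Of the 8 chaperone 3′UTRs tested 4 were called, with a median of -0.86.

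The SNORD14C peak of HSPA8 had 27.7, 22.7 and 22.2 CPM in the nuclear mock libraries, and 1.06, 1.02 and 1.05 CPM, which is 1 tag each, in the cytoplasmic ones. The SNORD14E peak had 30.6, 17.3 and 24.1 CPM in the nucleus and 3.19, 1.02 and 0 CPM in the cytoplasm. Both were higher in the nucleus in every library (log2 differences 2.99, SE 0.30, and 2.90, SE 0.37, limma adjusted p = 5.22e-06 and 5.2e-05). SNORD14 RNAs are box C/D snoRNAs, which guide methylation of ribosomal RNA in the nucleolus, and of the 68 snoRNA regions of all genes 58 were higher in the nucleus. HSPD1 introns had 33.5, 31.8 and 18.4 CPM in the nucleus and 17.0, 10.2 and 10.5 CPM in the cytoplasm. The groups did not overlap, with a 2.22-fold difference (log2 difference 1.01, SE 0.28, limma adjusted p = 0.016). The HSPD1 call was lost without nuclear library 1 or 2 or cytoplasmic library 2 or 3 (limma adjusted p = 0.0957 to 0.136), and the HSPA5 call remained only without nuclear library 2 (0.0501 to 0.0717 otherwise). The calls of the HSP90AA1, HSPA1B and HSP90AB1 3′UTRs and of both HSPA8 snoRNA peaks remained whichever library was left out. Among single peaks 46 were tested, and 2 were higher and 7 lower in the nucleus, where 2.82% of all peaks were called, 0.53% higher and 2.29% lower.

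**Figure D2:**
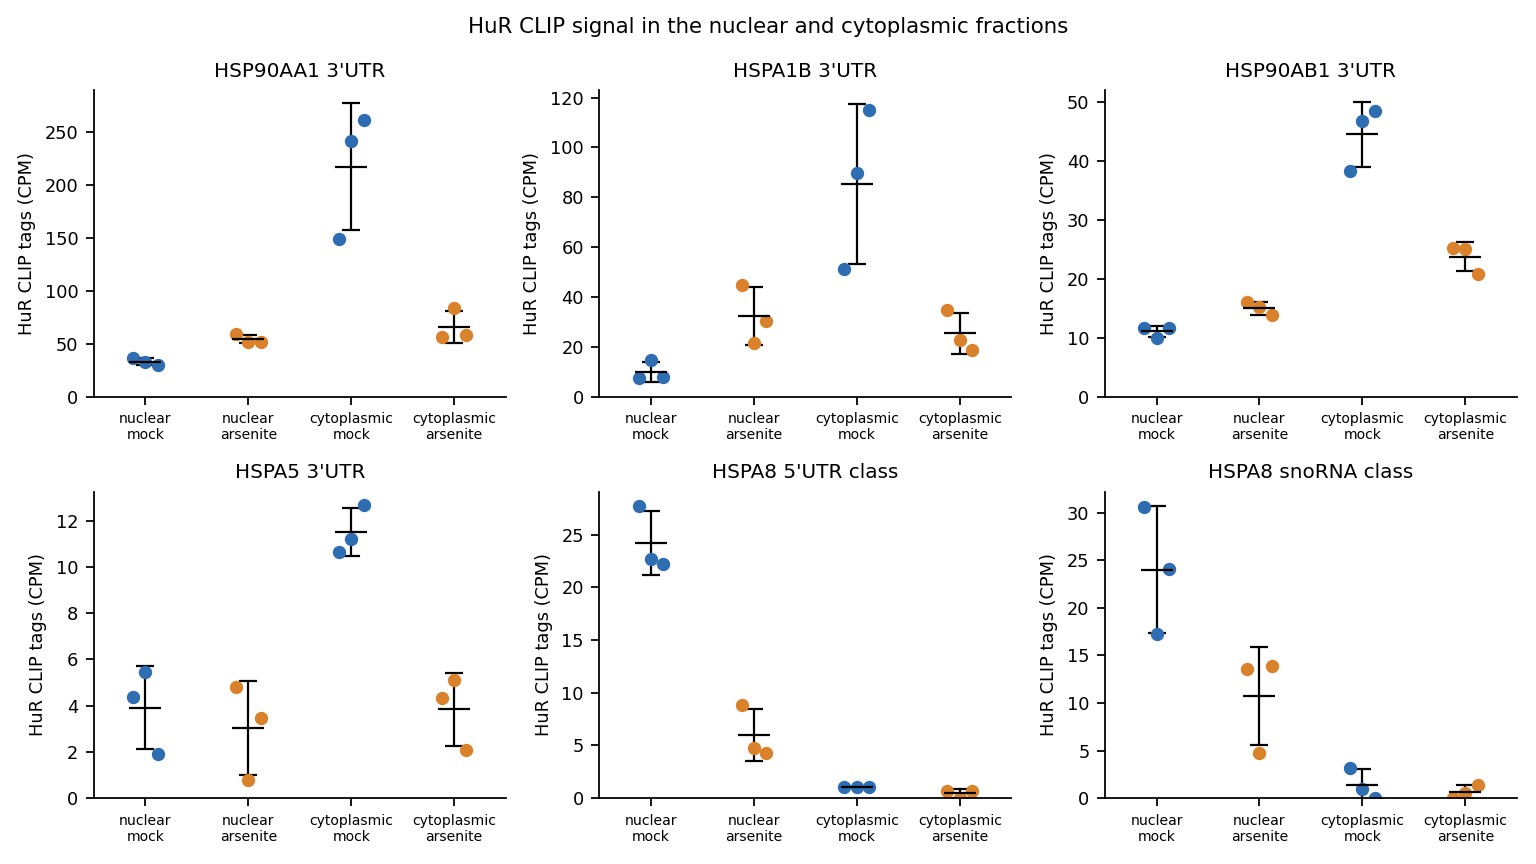
HuR signal (CPM, vertical axis) of 6 chaperone gene regions in the nuclear and cytoplasmic fractions of mock and arsenite cells, where points are single libraries and bars show mean ± SD (n = 3). Cytoplasmic mock libraries stand highest for the 3′UTRs of HSP90AA1, HSPA1B, HSP90AB1 and HSPA5, and nuclear mock libraries stand highest for both HSPA8 snoRNA peaks.

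Arsenite lowered HuR signal in the cytoplasm on the 3′UTRs of HSP90AA1, HSPA1B, HSP90AB1 and HSPA5 and on the HSP90AA1 CDS. Of 23 chaperone gene regions tested in the cytoplasmic fraction, 5 fell and 0 rose, while 13.3% of all 22884 gene regions were called, 6.7% higher and 6.62% lower. At an unadjusted p under 0.05, 6330 of all gene regions passed. The cytoplasmic mock libraries are the same as in the comparison of fractions above.

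The HSP90AA1 3′UTR had 56.3, 83.6 and 58.4 CPM in the cytoplasmic arsenite libraries, all below the lowest mock library (148.9 CPM). The mean fell from 217 ± 60.0 to 66.1 ± 15.2 CPM (SD, n = 3 each), 3.29-fold (log2 difference -1.66, SE 0.21, limma adjusted p = 8.4e-05). The HSPA1B 3′UTR had 34.6, 22.7 and 18.8 CPM under arsenite. The groups did not overlap, and the mean fell from 85.2 to 25.4 CPM, 3.36-fold (log2 difference -1.63, SE 0.27, limma adjusted p = 0.000862). The HSP90AB1 3′UTR had 25.3, 25.0 and 20.9 CPM under arsenite, again below every mock library. Its mean fell 1.88-fold (log2 difference -0.85, SE 0.19, limma adjusted p = 0.00891).

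HSPA5, whose product is the main chaperone of the endoplasmic reticulum, had 10.6, 11.2 and 12.7 CPM in its 3′UTR in mock and 4.33, 5.12 and 2.09 CPM in arsenite libraries. Every arsenite library was below every mock library, and the mean fell 2.99-fold (log2 difference -1.20, SE 0.30, limma adjusted p = 0.0146). The HSP90AA1 CDS had 4.25, 7.13 and 6.33 CPM in mock and 1.44, 1.71 and 1.39 CPM in arsenite libraries, the latter all at or below the level of 3 tags (log2 difference -1.09, SE 0.34, limma adjusted p = 0.0418). The HSP90AA1 3′UTR call remained in all 6 fits that left out 1 library, and the HSPA1B call was lost without mock library 2 or arsenite library 2 or 3 (limma adjusted p = 0.0504 to 0.108). The other 3 calls remained only without mock library 1, with limma adjusted p otherwise of 0.0522 to 0.0820 for HSP90AB1, 0.0673 to 0.0946 for HSPA5 and 0.101 to 0.146 for the HSP90AA1 CDS.

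Other chaperone regions did not pass in the cytoplasm. HSPH1 introns had 10.6, 5.09 and 7.38 CPM in mock and 13.7, 15.4 and 15.3 CPM in arsenite libraries. The groups did not overlap, but the difference missed the threshold (log2 difference 0.81, SE 0.27, limma adjusted p = 0.0589). HSPA1A had 2.13, 1.02 and 1.05 CPM in its 3′UTR in mock and 7.22, 2.27 and 3.48 CPM in arsenite libraries. These values do not overlap either (log2 difference 0.79, SE 0.37, limma adjusted p = 0.18), in the opposite direction to the near-copy HSPA1B and at levels of few tags. BAG3 introns had 0, 0 and 2.11 CPM in mock and 4.33, 2.84 and 2.78 CPM in arsenite libraries (limma adjusted p = 0.0811). The HSPA8 CDS had 4.25, 2.04 and 5.27 CPM in mock and 1.44, 1.71 and 0 CPM in arsenite libraries (log2 difference -0.88, SE 0.37, limma adjusted p = 0.127). These values do not overlap in CPM, but the tags do, with 4, 2 and 5 in mock and 2, 3 and 0 in arsenite libraries. The HSPH1 3′UTR, the HSPD1 3′UTR and CDS, and HSPA8 and HSPA5 introns had values that overlap between mock and arsenite. Of the 8 chaperone 3′UTRs tested 4 fell, with a median log2 difference of -0.57. Over all 6685 3′UTR regions the median was -0.30, and 1245 fell and 63 rose (19.6%). Of 7 chaperone intron regions 0 were called and the median was 0.18, beside 0.29 over all genes, where 14.6% of 8068 were called, 1089 of them higher.

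Single peaks were tested as well. Of the 94 chaperone peaks 58 were tested in the cytoplasm and 2 fell, while 0.76% of all peaks were called, 0.52% lower. The strongest HSP90AA1 peak had 132, 194 and 210 CPM in mock and 39.7, 52.9 and 39.0 CPM in arsenite libraries, a 4.07-fold fall without overlap (log2 difference -1.96, SE 0.22, limma adjusted p = 0.00584). The strongest HSPA1B peak fell 3.43-fold, from 79.7 ± 28 to 23.2 ± 7.6 CPM (SD, n = 3 each; log2 difference -1.66, SE 0.31, limma adjusted p = 0.0431). These calls remained in 4 and in 1 of the 6 fits that left out 1 library (limma adjusted p up to 0.245 and 0.261). The second HSP90AA1 peak, 740 nt from the 3′ end of the gene where the strongest is 876 nt from it, had 13.8, 43.8 and 44.3 CPM in mock and 14.4, 28.4 and 16.7 CPM in arsenite libraries, which overlap.

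**Figure D3:**
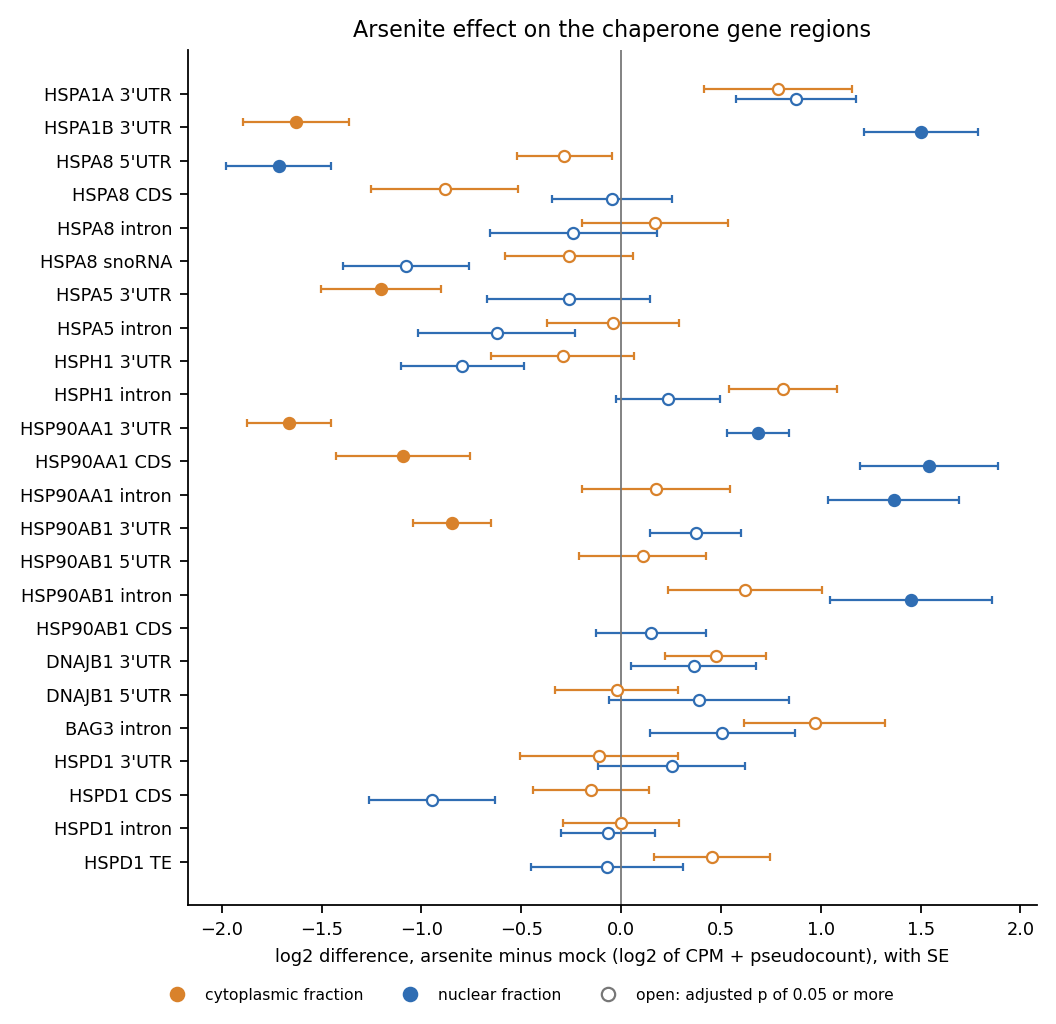
Log2 difference between arsenite and mock libraries (horizontal axis, points with SE bars) for each tested chaperone gene region in the cytoplasmic and the nuclear fraction, with filled points for regions past the adjusted threshold. The HSP90AA1 and HSPA1B 3′UTRs lie below 0 in the cytoplasm (-1.66 and -1.63) and above 0 in the nucleus (0.68 and 1.50).

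In the nuclear fraction arsenite raised HuR signal on the 3′UTR and introns of HSP90AA1, on the HSPA1B 3′UTR and on HSP90AB1 introns, and lowered it on the SNORD14C peak of HSPA8. Of 23 chaperone gene regions tested, 5 were called higher and 1 lower, while 6.13% of all 22212 gene regions were called, 4.48% higher and 1.65% lower. The fifth of the higher ones is the HSP90AA1 CDS, which entered the test only through the arsenite libraries and is given as values alone.

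The HSP90AA1 3′UTR had 59.3, 52.0 and 52.0 CPM in the nuclear arsenite libraries, above the highest mock library (36.4 CPM). The mean rose 1.65-fold (log2 difference 0.68, SE 0.16, limma adjusted p = 0.0164). HSP90AA1 introns had 7.29, 1.82 and 5.79 CPM in mock and 13.6, 14.4 and 18.2 CPM in arsenite libraries. Every arsenite library exceeded every mock library, and the mean rose 3.10-fold (log2 difference 1.37, SE 0.33, limma adjusted p = 0.0222). The HSP90AA1 CDS had 0 tags in the 3 mock libraries, where 3 tags would be 2.73 to 4.37 CPM, and 7.21, 2.40 and 4.33 CPM in arsenite libraries. Its fitted log2 difference moved from 0.58 to 5.36 over the other settings, so no size is given.

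The HSPA1B 3′UTR rose from 7.29, 14.5 and 7.72 CPM in the nuclear mock libraries to 44.8, 21.6 and 30.3 CPM under arsenite. The groups did not overlap, with a 3.27-fold difference of the means (log2 difference 1.50, SE 0.29, limma adjusted p = 0.0048). HSP90AB1 introns had 0, 3.64 and 2.90 CPM in mock and 6.41, 12.8 and 8.66 CPM in arsenite libraries, a 4.27-fold rise without overlap (log2 difference 1.45, SE 0.40, limma adjusted p = 0.0463). This call remained in 5 of 7 other settings (adjusted p up to 0.0986). The HSP90AB1 3′UTR had 16.0, 15.2 and 13.9 CPM under arsenite, above every mock library, but did not pass (log2 difference 0.37, SE 0.23, limma adjusted p = 0.396).

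The SNORD14C peak of HSPA8 had 8.81, 4.80 and 4.33 CPM in the nuclear arsenite libraries, all below the lowest mock library (22.2 CPM). The mean fell 4.05-fold, from 24.2 ± 3.0 to 5.98 ± 2.5 CPM (SD, n = 3 each; log2 difference -1.71, SE 0.26, limma adjusted p = 0.000948). The SNORD14E peak had 13.6, 4.80 and 13.9 CPM under arsenite, without overlap with mock, but missed the threshold (log2 difference -1.07, SE 0.32, limma adjusted p = 0.059), while edgeR on the recovered tags gave an adjusted p of 0.0325. Of the 76 snoRNA regions of all genes 26 were called, all lower, with a median log2 difference of -0.78. At the level of single peaks, the SNORD14C peak was the 1 chaperone peak called, lower, where 0.186% of all peaks were called, 0.034% lower. That peak call was lost in each of the 6 fits that left out 1 library (limma adjusted p up to 0.324).

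The SNORD14C call was lost only without arsenite library 3 (limma adjusted p = 0.0727), and the HSPA1B call was lost without mock library 1 or arsenite library 1 or 3 (0.0846 to 0.154). The HSP90AA1 intron call was lost without mock library 2 or any 1 arsenite library (limma adjusted p = 0.0745 to 0.221). The other higher calls with tags in both groups remained in 1 of 6 such fits each, the HSP90AA1 3′UTR without mock library 1 and HSP90AB1 introns without mock library 2. Of the 8 chaperone 3′UTRs tested 2 rose, with a median log2 difference of 0.37, beside 0.39 over all 6001 3′UTR regions, of which 14.3% were called.

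Co-chaperones and the remaining genes did not pass in the nucleus. DNAJB1, which delivers clients to HSP70, had 4.37, 4.55 and 0 CPM at its 5′UTR in mock and 6.41, 2.40 and 3.47 CPM in arsenite libraries, which overlap. HSPA1A had 0, 0.909 and 0 CPM in its 3′UTR in mock and 3.20, 2.40 and 1.73 CPM in arsenite libraries. These groups were apart, at 1 tag in all in mock (log2 difference 0.88, limma adjusted p = 0.104). HSPH1 introns had 11.7, 12.7 and 9.66 CPM in mock and 12.8, 10.4 and 19.1 CPM in arsenite libraries, and HSPD1 introns had 29.6, 28.8 and 19.9 CPM under arsenite, both overlapping with mock. The HSPA5 3′UTR had 1.93 to 5.46 CPM in mock and up to 4.80 CPM in arsenite libraries, and these groups overlap. BAG3, a co-chaperone of HSP70 in selective autophagy, had 0.909 to 1.46 CPM in its introns in mock, and the arsenite libraries overlap with these. The HSPH1 3′UTR had 2.91, 0.909 and 2.90 CPM in mock and 0, 0 and 0.866 CPM in arsenite libraries (log2 difference -0.80, SE 0.31, limma adjusted p = 0.152). Of these, 0.909 and 0.866 CPM are 1 tag each, so the groups are apart in CPM but not in tags. The HSPD1 CDS had 4.37, 1.82 and 1.93 CPM in mock, and 1 tag in all in the arsenite libraries (log2 difference -0.95, SE 0.32, limma adjusted p = 0.0964). Both lie at or near the level of 3 tags and did not pass.

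The arsenite effect was tested for a difference between the fractions (the nuclear minus the cytoplasmic log2 difference, fitted over all 12 fraction libraries). Of 24 chaperone gene regions 4 had a higher effect in the nucleus and 1 a lower one, where 11% of all 27489 gene regions were called, 7.05% higher and 3.99% lower. The difference was 3.13 for the HSPA1B 3′UTR (SE 0.36, limma adjusted p = 1.49e-10) and 2.35 for the HSP90AA1 3′UTR (SE 0.25, limma adjusted p = 2.76e-11). It was 1.22 for the HSP90AB1 3′UTR (SE 0.33, limma adjusted p = 0.00768). These 3 calls remained in each of the 12 fits that left out 1 library. The HSP90AA1 CDS was also called, but its value rests on nuclear mock libraries without a tag and ranged from 1.07 to 7.35 over other settings.

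For the SNORD14C peak the difference was -1.43 (SE 0.49, limma adjusted p = 0.0438). This call was lost in 9 of 12 such fits (limma adjusted p = 0.0580 to 0.0982) and with edgeR on the recovered tags (adjusted p = 0.841), and the cytoplasmic libraries held 0 or 1 tag each. Of the 8 chaperone 3′UTRs 3 were called, with a median difference of 0.65, beside 0.63 over all 7282 3′UTR regions, of which 24.2% were called.

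Under arsenite no chaperone 3′UTR passed the test between the fractions. Of 24 regions tested between nuclear and cytoplasmic arsenite libraries, 4 were higher in the nucleus and 0 in the cytoplasm, while 4.99% of all 23772 gene regions were called, 1.62% higher in the nucleus and 3.38% lower. The HSP90AA1 3′UTR gave a log2 difference of -0.25 (limma adjusted p = 0.429) and the HSPA1B 3′UTR one of 0.30 (limma adjusted p = 0.543). Of the 8 chaperone 3′UTRs 0 were called, beside 10.9% of 6591 over all genes. A p above the threshold does not show that the levels were alike.

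The 4 regions that were higher in the nucleus under arsenite were HSP90AA1 introns, HSPD1 introns and both HSPA8 snoRNA peaks. HSP90AA1 introns had 13.6, 14.4 and 18.2 CPM in the nucleus and 0.722, 1.14 and 3.48 CPM in the cytoplasm, an 8.66-fold difference without overlap (log2 difference 2.17, SE 0.30, limma adjusted p = 4.27e-05). Most of this lay in the intron peak at chr14:102083716-102083736, with 10.4 ± 0.83 CPM in the nucleus and 0.894 ± 0.44 CPM in the cytoplasm (SD, n = 3 each; limma adjusted p = 0.00406). It was 1 of 3 chaperone peaks called, all higher in the nucleus, where 0.257% of all peaks were called, 0.11% higher and 0.147% lower, and its call was lost in each of the 6 fits that left out 1 library (up to 0.160). HSPD1 introns had 29.6, 28.8 and 19.9 CPM in the nucleus and 7.94, 13.1 and 17.4 CPM in the cytoplasm, without overlap (log2 difference 0.94, SE 0.24, limma adjusted p = 0.0188). The SNORD14C and SNORD14E peaks gave log2 differences of 1.56 (SE 0.34, limma adjusted p = 0.00543) and 2.08 (SE 0.36, limma adjusted p = 0.000577) over cytoplasmic libraries that held 2 and 3 tags in all. HSPD1 remained called only without cytoplasmic library 3 (limma adjusted p = 0.155 to 0.256 otherwise), and the other 3 calls were lost without nuclear library 3 or cytoplasmic library 2 (0.0579 to 0.152).

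The composition of the chaperone tags by class was computed for each library. The 3′UTR share was 88.0 ± 4.56% of chaperone tags in cytoplasmic mock libraries and 71.6 ± 5.89% in cytoplasmic arsenite libraries (SD, n = 3 each, here and in the next sentences). In the nucleus it was 35.9 ± 2.71% in mock and 52.2 ± 1.60% in arsenite libraries. The intron share was 7.38 ± 3.16% in cytoplasmic mock and 23.4 ± 6.43% in cytoplasmic arsenite libraries. The intron peaks themselves summed to 28.6 ± 4.91 and 41.8 ± 9.38 CPM in these groups, so the share changed more than the sum. In CPM, the chaperone 3′UTR peaks summed to 367 ± 99.6 in cytoplasmic mock, 129 ± 17.9 in cytoplasmic arsenite, 62.3 ± 5.49 in nuclear mock and 111 ± 16.5 in nuclear arsenite libraries. The snoRNA class, here the SNORD14E peak alone, took 13.7 ± 3.07% in nuclear mock and 4.98 ± 2.20% in nuclear arsenite libraries. The SNORD14C peak is counted in the 5′UTR class. That class took 15.7 ± 1.34% in nuclear mock and 4.63 ± 1.47% in nuclear arsenite libraries. These shares are a description of the sums.

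**Figure D4:**
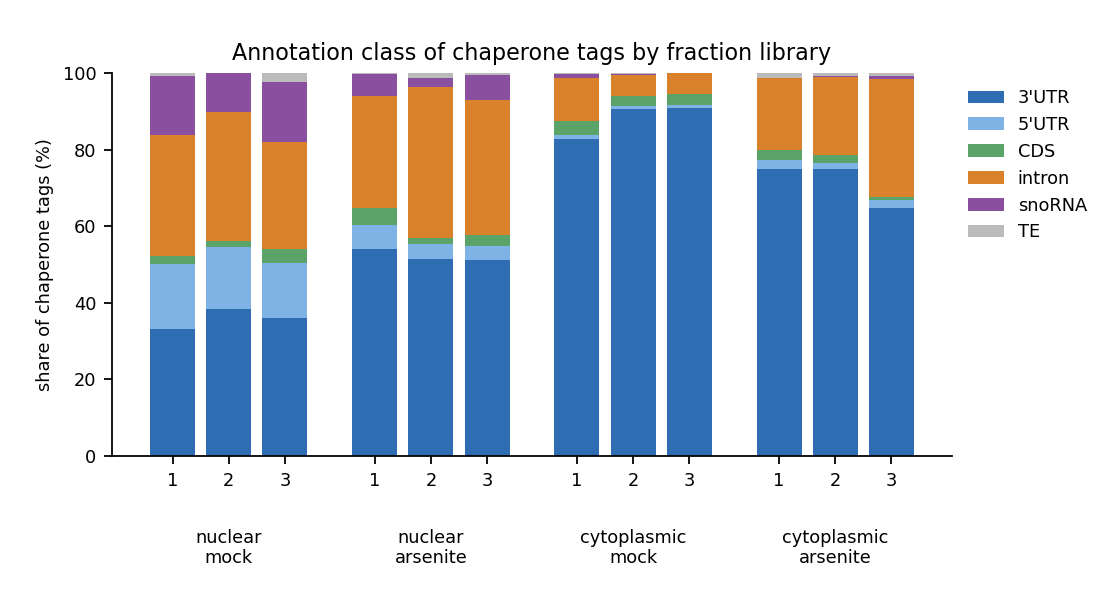
Share of chaperone tags (percent, vertical axis) by annotation class in each of the 12 fraction libraries, stacked to the full bar. The 3′UTR class takes most of each cytoplasmic bar (mean 88.0% in mock and 71.6% in arsenite libraries) and less of the nuclear bars (35.9% and 52.2%). The SNORD14C peak of HSPA8 is counted in the 5′UTR class.

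In the APEX lines no chaperone region passed any arsenite comparison with limma. In the enriched libraries 7 regions could be tested in the APEX-NLS line, 2 in the APEX-NES line and 3 in the APEX-G3BP1 line, and 0 of each were called, with edgeR on the recovered tags as well. The background was 0% in each of these comparisons, with 342 of 5238, 105 of 1554 and 415 of 2560 gene regions at an unadjusted p under 0.05. Between APEX-G3BP1 and APEX-NES enriched arsenite libraries 2 chaperone regions were tested and 0 called (edgeR 0 as well), where 3.12% of all 2275 gene regions were called.

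The HSP90AA1 3′UTR had tags in 4 of 4 APEX-NLS enriched arsenite libraries (2.90 to 26.7 CPM, median 11.7) and in 1 of 4 mock libraries (2.09 CPM). Arsenite libraries 1 and 2 of this group, with 13.9 and 26.7 CPM, could not be told apart by their tags and may be 1 sample, which would leave 3 of 3. The groups did not overlap in CPM, but the highest mock and the lowest arsenite library held 1 tag each. The difference did not pass (log2 difference 2.28, SE 0.73, limma adjusted p = 0.571). Within the 2 library sets of this comparison the log2 difference was 3.25 and 1.31. In APEX-G3BP1 enriched libraries the same region had 0 to 67.8 CPM (median 28.9) in 6 mock and 0 to 76.1 CPM (median 34.2) in 7 arsenite libraries, which overlap. The HSPA1B 3′UTR had tags in 6 of 7 APEX-G3BP1 enriched arsenite libraries (median 22.5 CPM) and in 2 of 6 mock libraries (median 0 CPM). The ranges overlap (0 to 47.7 and 0 to 17.9 CPM), and the difference did not pass (log2 difference 1.98, SE 1.04, limma adjusted p = 0.315). Within the 3 library sets it was 2.04, 3.75 and 0.15. Over all 2560 gene regions of this comparison the median log2 difference was 0.78. The mock libraries at 0 include libraries 1, 3 and 4, with only 6330, 14760 and 4662 tags in total. In an enriched library 1 tag was worth up to 214.5 CPM, and a p above the threshold does not show that these levels were alike.

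In the input libraries of the APEX lines 10 chaperone regions were tested with the line as a term and 0 were called by limma, where the background was 0% (1175 of 11316 at an unadjusted p under 0.05). The test with edgeR on the recovered tags called 4 of them and 815 regions of all genes. The HSPH1 introns and the HSPA1B 3′UTR were higher under arsenite (edgeR adjusted p = 0.000278 and 0.00919), and the SNORD14C and SNORD14E peaks of HSPA8 were lower (0.0423 and 0.0459). The SNORD14C peak had 3.71 and 50.7 CPM in the APEX-NLS mock inputs and 5.23 and 15.7 CPM in the arsenite inputs, where the 50.7 CPM were 133 tags. In APEX-NES inputs it had 3.60 and 16.5 CPM in mock and 7.42 and 16.3 CPM in arsenite libraries. These were 3 and 2 tags in mock and again 3 and 2 tags under arsenite. In APEX-G3BP1 inputs the SNORD14C peak had 0 to 10.5 CPM (median 4.74) in mock and 0 to 2.41 CPM (median 0) in arsenite libraries. These ranges overlap, with the medians in the direction of the call. The lower values thus did not hold in each pair of a line and a library set. The SNORD14E peak had 6.79 and 26.3 CPM in the APEX-NLS mock inputs and 5.23 and 10.1 CPM in the arsenite inputs. In APEX-NES inputs it had 15.6 and 8.27 CPM in mock and 4.95 and 16.3 CPM in arsenite libraries. The JL1024 library was thus higher under arsenite, but from 1 tag in mock and 2 tags under arsenite. In APEX-G3BP1 inputs it had 0 to 89.0 CPM in mock, the highest from 2 tags, and 0 to 4.82 CPM in arsenite libraries. HSPA1B had 4.96 and 10.5 CPM in the 2 APEX-NLS mock inputs and 11.2 and 31.4 CPM in the arsenite inputs. Its APEX-NES inputs had 14.4 and 0 CPM in mock and 29.7 and 0 CPM in arsenite libraries. In APEX-G3BP1 inputs HSPA1B had 0 to 17.0 CPM (median 2.37) in 4 mock and 0 to 62.2 CPM (median 27.6) in 5 arsenite libraries, which overlap. The JL0388 library of this line had 17.0 CPM in mock and 14.5 CPM under arsenite, the other way. HSPH1 introns had 0.763 and 1.85 CPM in APEX-NLS mock and 3.36 and 10.5 CPM in APEX-NLS arsenite inputs. In APEX-G3BP1 inputs, which held 163 of the HSPH1 intron tags under arsenite, they had 0 to 14.2 CPM (median 0) in mock and 0 to 72.1 CPM (median 8.44) in arsenite libraries, which overlap. In APEX-NES inputs they had 0 CPM in both mock libraries and 0 and 14.8 CPM in the arsenite libraries. The libraries of these lines came in 3 sets by the prefix of their labels (JL0361, JL0388 and JL1024). Within these sets the log2 difference of HSPA1B in the inputs was 2.21, 0.71 and 1.54, and that of the HSP90AA1 3′UTR was 1.28, 1.12 and -0.61.

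**Figure D5:**
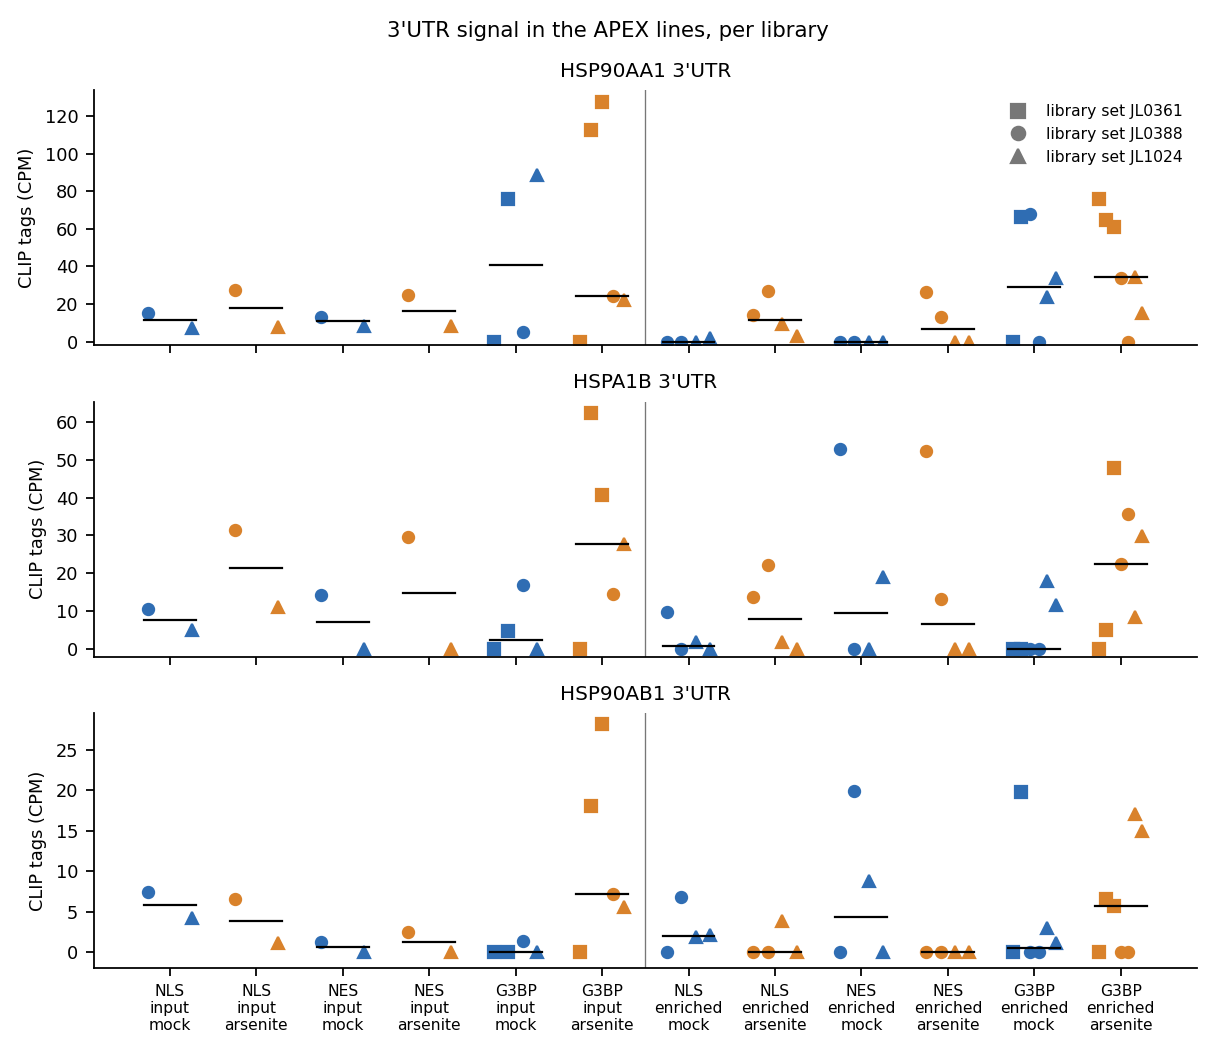
HuR signal (CPM, vertical axis) of the HSP90AA1, HSPA1B and HSP90AB1 3′UTRs in input and enriched libraries of the APEX-NLS, APEX-NES and APEX-G3BP1 lines, where points are single libraries, marker shapes are the library sets and lines are group medians. Values of 0 occur in many enriched libraries, and the APEX-G3BP1 arsenite median of HSPA1B (22.5 CPM) stands above a mock median of 0.

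A list of 61 other heat shock, chaperone and co-chaperone genes was examined in the same fits. In the cytoplasm 115 regions of 49 of these genes were tested under arsenite, and 4 rose and 21 fell (21.7% called, beside 13.3% of all gene regions). Of the 42 3′UTRs among them 21 fell and 1 rose (52.4%, beside 19.6% of all 3′UTR regions), with a median log2 difference of -0.69. PDIA4, a protein disulfide isomerase of the endoplasmic reticulum, fell from 428 ± 80.7 to 47.9 ± 6.73 CPM in its 3′UTR (SD, n = 3 each; log2 difference -3.09, SE 0.17, limma adjusted p = 4.69e-08). CALR, a lectin chaperone of the same compartment, fell from 320 ± 72.9 to 74.7 ± 3.47 CPM (SD, n = 3 each). Transposable-element peaks in HSPA9 and DNAJA3, a mitochondrial HSP70 and its J-domain partner, were among those called higher. Both had 0 to 1.02 CPM in mock libraries, and 3.98 to 5.78 and 2.78 to 5.12 CPM in arsenite libraries. They entered the test only through the arsenite libraries, so these calls are given no weight.

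In the nucleus 112 regions of the list were tested under arsenite, and 4 rose and 2 fell, which is 5.36%, beside 6.13% of all gene regions. HSPA9 went up in its 3′UTR, with means of 15.6 ± 1.91 CPM in mock and 54.0 ± 5.89 CPM in arsenite libraries (SD, n = 3; log2 difference 1.65, SE 0.18, limma adjusted p = 4.37e-05). The 3′UTR of STIP1, which links HSP70 to HSP90, rose from 2.52 to 11.3 CPM. The PDIA4 3′UTR fell in the nucleus as well, from 118.7 to 44.7 CPM. The snoRNA class of HSPA9 fell from 23.2 ± 1.35 to 7.51 ± 4.18 CPM (SD, n = 3 each), in the direction of the HSPA8 snoRNA peaks. The arsenite effect differed between fractions for 16 of 132 regions of the list, 15 of them higher in the nucleus. This is 12.1%, beside 11% of all gene regions, of which 7.05% were higher. Of the 44 3′UTRs of the list 15 were called (34.1%, beside 24.2% of all 3′UTR regions), with DNAJA2 and HSPA9 at 2.94 (SE 0.37) and 2.33 (SE 0.27). In mock cells 115 regions of the list were tested, and 16 were higher in the nucleus and 32 in the cytoplasm (41.7%, beside 29% of all gene regions), with the largest differences of the called regions in the DNAJB9 and HSPA9 3′UTRs (log2 -3.13 and -3.09).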

How the data were processed

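The series holds 58 HuR CLIP-seq libraries in 16 groups, all from the Huh-7.5 line. The authors deposited 1 table of signal per peak and library. Per the submitters' processing notes, Bowtie2, SAMtools, bedtools and HOMER were used, with build GRCh38.p14; their order and settings are not given in the sources used here, nor is how reads that fit several copies were placed. Of 395471 lines, 8257 repeats were dropped, leaving 387214 peaks, 302856 of them with a gene name. Each deposited signal was a whole number of tags divided by a library total (100% of values within 0.01 tags). Values were expressed per 1000000 of that total (CPM), and peaks of 1 gene and 1 annotation class were summed into gene regions. Peak positions were copied from the table, which does not say if starts count from 0 or 1.

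Comparisons used limma 3.58.1 (R 4.3.3; lmFit and eBayes with a trend, two-sided) on log2(CPM + 2.28), the pseudocount being the smallest value above 0 of each library, as a median, so differences of low regions are understated. A region entered a test if the number of libraries with a tag reached the size of the smaller group. P-values were adjusted over all regions or peaks (Benjamini-Hochberg, 0.05). Folds are ratios of mean CPM. edgeR 4.0.16 (quasi-likelihood) on the recovered tags was an alternative. Both were tested on simulated data. Python 3.11.15, numpy 2.4.6, pandas 2.3.3 and matplotlib 3.10.9 were used.

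In set JL0388, replicates 1 and 2 of APEX-NES enriched arsenite, APEX-NES enriched mock and APEX-NLS enriched arsenite did not differ beyond sampling noise at p = 0.05 (chi-square tests of tags over 33, 14 and 56 peaks gave p = 0.0629, 0.574 and 0.0654, with chi-square per degree of freedom of 1.41, 0.88 and 1.30). With so few peaks this is weak evidence that they are the same library. They were counted as 1 sample in means ± SD and separately in ranges, medians, tallies and fits; the fits with each pair averaged called 0 chaperone regions as well. All fraction libraries belong to set JL0380, so no set is split there. Replicate numbers did not pair the fraction samples (correlations of deviations -0.0476 to 0.141).

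The genes and lists were chosen with earlier results of these data known. The rule was to describe all 10 genes by class; tags are given by class, and values by library for the regions that passed and for selected others, with regions of few tags left out. Peaks were named where they held the most tags of their gene or were called between fractions or treatments, at most 2 of each sign. Of the list of 61, at most 2 called regions of each sign were named for each fraction comparison. The 3 genes with the most similar 3′UTR pattern were also named. Counting error is covered by the 3-tag level only, since tags without molecular identifiers need not be independent molecules.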

Additional observations from a re-analysis of the deposited data

Results flagged for a closer look

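In groups of 4 to 10 libraries, 36 groups of 5 chaperone regions were examined for a library that stands apart from the others (8 library groups), and 10 had one. Chance gives about 1 in 20 for continuous values, a rate that does not hold where most libraries of a group are at 0 and any library with a tag stands apart. Each of the 10 rests on 1 to 4 tags. For the HSP90AA1 3′UTR, APEX-NLS enriched mock library 4 stood apart at 2.09 CPM (1 tag) with the others at 0. For the HSP90AB1 3′UTR, APEX-G3BP1 input mock library 3 stood at 1.31 CPM (1 tag), APEX-NLS enriched arsenite library 3 at 3.82 CPM (2 tags) and APEX-G3BP1 enriched mock library 2 at 19.8 CPM (3 tags). For the SNORD14C peak of HSPA8, APEX-G3BP1 enriched mock library 6 stood at 1.06 CPM and arsenite library 2 at 1.65 CPM (1 tag each). For the SNORD14E peak, APEX-G3BP1 input mock library 4 stood at 89.0 CPM (2 tags), input arsenite library 4 at 4.82 CPM (4 tags), APEX-NES enriched arsenite library 1 at 26.1 CPM (1 tag) and APEX-G3BP1 enriched mock library 5 at 5.98 CPM (2 tags).

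The arsenite effect differed between the nuclear and cytoplasmic fractions by the test of that difference for 3 regions with tags in each group. The log2 difference of effects was 2.35 for the HSP90AA1 3′UTR, 1.22 for the HSP90AB1 3′UTR and 3.13 for the HSPA1B 3′UTR. For the SNORD14C peak of HSPA8 it was -1.43, a call that was lost in 9 of 12 fits that left out 1 library (limma adjusted p = 0.0580 to 0.0982) and with edgeR (0.841). The fit also gave 2.63 for the HSP90AA1 CDS, but this region had 0 tags in the nuclear mock libraries and the value ranged from 1.07 to 7.35 over other settings, so no difference is read from it.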

How the results depend on the processing

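Counts of chaperone regions called when 1 library was left out were 1 to 6 (5 with all libraries) for arsenite in the cytoplasm, 0 to 3 (6) for arsenite in the nucleus, 6 to 7 (8) between fractions in mock cells, 0 to 4 (4) between fractions under arsenite and 4 to 5 (5) for the difference of the effects. Counts of peaks were 0 to 5 (2), 0 to 1 (1), 0 to 8 (9) and 0 to 0 (3) in the first 4 of these comparisons. Other settings kept the counts of regions in the fractions within 1.5 times. With edgeR, the regions called in the fractions numbered 5, 7, 8, 4 and 4, and 4 input regions were called in place of 0. Peaks called in the cytoplasm numbered 1 with a pseudocount 4 times larger. Peaks called in the nucleus under arsenite numbered 0 with a pseudocount 4 times smaller or with tags in peaks as the total, 3 with edgeR, and 5 without a filter or with a minimum mean of 5 CPM. Peaks called between fractions under arsenite numbered 1 with a pseudocount 4 times smaller. Of 580 values of 43 named regions and peaks under other settings, 432 stayed on the same side of the threshold, 148 lost the call (135 of them by leaving out a library) and 0 changed sign. With tags in peaks as the total, the median of all regions shifted by 0.14 (log2) between fractions in mock cells and by -0.87 between APEX-G3BP1 and APEX-NES enriched libraries. With the replicate number as a block, the counts of regions in the fractions were 5, 7, 8, 4 and 5 in the order above; the numbers did not pair the samples. In the APEX lines 18 of 29 enriched libraries held fewer than 10 chaperone tags.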

Other observations

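The pattern of the chaperone 3′UTRs over the 12 fraction libraries was shared with many other genes. Among 1029 genes whose 3′UTR had a mean of at least 20 CPM, 39.3% had a Pearson correlation above 0.9 with the mean centred log2 values of the 8 chaperone 3′UTRs. The highest were ACLY (0.989), a lipid synthesis enzyme, HNRNPU (0.984), a nuclear RNA-binding protein, and MARCKS (0.982), a membrane-associated protein kinase C substrate. ACLY had mean levels of 15.0 CPM in nuclear mock, 30.6 in nuclear arsenite, 88.3 in cytoplasmic mock and 45.1 in cytoplasmic arsenite libraries. These are descriptions over 12 libraries of 1 set that share their totals.

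Between the nuclear and cytoplasmic arsenite libraries, 11 of 112 regions of the list of 61 genes were called (9.82%, beside 4.99% of all gene regions), 2 higher and 9 lower in the nucleus. Introns of 2 listed genes (of 42 tested) were higher in the nucleus than in the cytoplasm under arsenite: DNAJA1 (log2 difference 0.89, SE 0.22), a J-domain partner of HSP70, and BAG4 (0.71, SE 0.21), a nucleotide exchange factor. Of the 40 listed 3′UTRs 9 were lower in the nucleus (22.5%, beside 10.9% of all 3′UTR regions called), with the largest differences in PTGES3, an HSP90 co-chaperone, and PDIA3, a disulfide isomerase (log2 differences -1.96, SE 0.29, and -1.39, SE 0.29). The transposable-element peaks of DNAJA3 were called for a lower arsenite effect in the nucleus than in the cytoplasm. They had 0 to 1.02 CPM in cytoplasmic mock and 2.78 to 5.12 CPM in cytoplasmic arsenite libraries. In the nucleus they had 0 to 4.83 CPM in mock and 0 to 2.40 CPM in arsenite libraries. The call rests on cytoplasmic mock libraries with almost no tags, so no difference is read from it.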
